A study of Mus musculus with 6 samples.

Results

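C-type lectin receptors are the carbohydrate- and glycoprotein-binding receptors with which dendritic cells sample their surroundings. The genes described here are the 41 of 23225 symbols of the deposited count table whose names begin with Clec and a number, are Cd209a to Cd209g, Mrc1 or Mrc2, or are Ly75, Cd207 or Cd302. They were chosen by a rule on symbols, with earlier results of these data known. RNA was sequenced from tumour-associated dendritic cells that were sorted from C57BL/6 mice bearing ID8 tumours on day 23, with ascites as the source. ID8 cells are a mouse ovarian surface epithelial line that forms tumours and ascites in the peritoneum. The WT group (n = 3) was wild type, and the XBP1-KO group (n = 3) carried a conditional deletion of XBP1 in CD11c-positive cells. Strain, tumour and day were the same in both groups. RNA was isolated separately for each library, but the labels name neither animals nor pools, nor the Cre line or the sort gate. The p-values therefore measure the spread between these samples, which may in part be technical.

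Mannose receptors and the Cd209 proteins bind mannose-rich sugars and carry cargo into endosomes, where it can be processed for presentation. Several receptors of the Dectin-1 and Dectin-2 groups, though not inhibitory ones such as Clec12a, signal through the kinase Syk. They do so either by a motif in their own tail or through the adaptor Fc receptor gamma chain, and the adaptor Card9 can then link them to NF-kB. DCIR proteins with an inhibitory motif recruit phosphatases and restrain that signal. XBP1, the factor deleted here, is a transcription factor of the ER stress response and drives genes of the secretory pathway through which such membrane glycoproteins are made.

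Windows before the transcription start were matched by symbol for 34 members, with 37 windows in all, and are RefSeq sequences of build GRCm38.p6. That build differs from the mm9 of the counts, so no position here refers to a read. The following 250-base windows run 5′ to 3′ up to the base before the start, and capitals mark GAGGAA or its complement TTCCTC, the core of sites for the myeloid factor PU.1. Mrc1 is shown because it was the only member called between the genotypes, Clec4a2 because its fold change was close to that of Mrc1, and Cd209a and Clec4b1 because they had the highest levels per length.
Mrc1 (chr2:14229164-14229413, + strand): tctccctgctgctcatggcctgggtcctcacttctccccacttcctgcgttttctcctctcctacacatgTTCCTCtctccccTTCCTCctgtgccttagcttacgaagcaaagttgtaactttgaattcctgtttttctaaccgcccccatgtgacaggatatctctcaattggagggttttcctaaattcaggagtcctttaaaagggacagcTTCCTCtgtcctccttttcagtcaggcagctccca
Clec4a2 (chr6:123122440-123122689, + strand): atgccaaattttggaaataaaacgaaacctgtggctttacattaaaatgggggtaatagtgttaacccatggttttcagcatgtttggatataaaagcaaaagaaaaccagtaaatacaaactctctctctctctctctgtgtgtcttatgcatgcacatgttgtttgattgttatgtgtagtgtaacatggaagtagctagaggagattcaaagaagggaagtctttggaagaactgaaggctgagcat
Cd209a (chr8:3748985-3749234, - strand): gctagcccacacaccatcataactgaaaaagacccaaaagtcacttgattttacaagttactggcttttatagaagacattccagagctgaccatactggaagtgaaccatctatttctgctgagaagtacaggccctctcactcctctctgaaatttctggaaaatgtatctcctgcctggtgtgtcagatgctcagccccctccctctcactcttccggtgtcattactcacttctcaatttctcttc
Clec4b1 (chr6:123049712-123049961, + strand): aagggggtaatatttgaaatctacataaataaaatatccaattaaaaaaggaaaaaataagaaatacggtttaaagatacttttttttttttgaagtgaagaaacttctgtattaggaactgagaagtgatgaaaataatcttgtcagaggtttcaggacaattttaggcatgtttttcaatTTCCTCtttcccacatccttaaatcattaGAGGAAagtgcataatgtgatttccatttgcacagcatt
The Mrc1 window held 3 matches and the Clec4b1 window 2, while those of Clec4a2 and Cd209a held none. On either strand the 6 letters occurred in 17 of the 37 member windows, or 45.9%, against 23.3% of 32851 windows of the same length over all genes. The windows of Clec7a overlap and hold the same match. Counted by gene, 16 of the 34 members had a match. TGACGTG, the core of an element that XBP1 binds, occurred on either strand in none of the 37 windows and in 1.65% of all windows. CCACG, the part of the ER stress element that the same family of factors contacts, was in 3 of the 37 and in 28.3% of all. A match is only a run of letters, and no binding was measured.

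Libraries held between 26946349 and 32709100 counts. Xbp1 itself had 67.2, 48.7 and 76.8 CPM in WT against 32.5, 30.9 and 40.4 CPM in XBP1-KO, without overlap, XBP1-KO being lower (log2 fold change -0.89, SE 0.18, adjusted p 0.0544). The difference did not pass the threshold of 0.05. The labels do not say which exons were deleted, and counts over the whole gene may include others. CPM here is the count relative to the size of its library (in ppm of its counts) after scaling by TMM, a method that aligns libraries on the bulk of their genes, and values of single libraries are given in the order a, b and c. Markers of other cells moved with the genotype. For comparison with the calls among them, 0.157% of all genes tested were called higher and 0.288% lower. The summed level of 12 T and NK cell genes was 124, 151 and 112 CPM in the WT libraries and 241, 346 and 196 CPM in those of XBP1-KO, with 11 of 12 higher and 4 called. That of 5 neutrophil genes was 211, 138 and 107 in WT and 333, 352 and 386 CPM in XBP1-KO, with 5 of 5 higher and none called. That of 5 B cell genes was 312, 129.9 and 213 in WT and 373, 336 and 487 CPM in XBP1-KO, with 5 of 5 higher and none called. That of 6 mast cell genes overlapped, with 97.8, 166 and 122 in WT and 114, 113 and 151 CPM in XBP1-KO. Of these 6, 5 were higher and 2 called, while Kit, the most abundant, had 70.4, 140.5 and 94.9 CPM in WT against 56.9, 65.1 and 68.6 CPM in XBP1-KO (adjusted p 0.209). That of 4 platelet genes was 161, 155 and 91.6 in WT and 171, 439 and 218 CPM in XBP1-KO, with 2 of the 3 tested higher and none called. That of 12 macrophage genes overlapped at 5035, 4189 and 5099 in WT and 5447, 5644 and 4647 CPM in XBP1-KO, with 8 of 12 higher and none called. Most of this sum was C1qb, which overlapped between the genotypes. Of these 12, 2 lay above WT and 1 below it without overlap, where 8.80% and 10.4% of all genes did. Among 5 genes of the cDC2 type of dendritic cell the sum was 2567, 2388 and 2868 in WT and 2120.0, 1624 and 1805 CPM in XBP1-KO, with 3 of 5 lower and 1 called lower. Most of this sum was Mgl2, which overlapped between the genotypes. Among 6 monocyte genes the sum was 2950.5, 2528 and 3255 in WT and 1948, 2204 and 1919 CPM in XBP1-KO, although 5 of 6 genes lay higher, since Ccr2, a chemokine receptor, made up most of it and lay lower. General dendritic cell markers were present in every library, at 689, 859 and 699 in WT and 661, 689 and 693 CPM in XBP1-KO over 6 genes, with 5 of 6 lower and none called. The 1 higher was Itgax, the gene of CD11c, with 109, 94.3 and 106 CPM in WT against 143, 161 and 133 CPM in XBP1-KO. Its values did not overlap (log2 fold change 0.50, edgeR adjusted p 0.106), where 8.80% of all genes lay above WT. Below WT without overlap lay 2 of the 6, where 10.4% of all genes did. Of these lists, only the platelet gene Gp9 was at 0 in some libraries. The part of these cells in the results below was not tested. In such bulk samples fewer cells of a type and less RNA per cell cannot be told apart.

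Of the 41 members, 10 had a mean over all 6 libraries of at least 100 CPM, 9 lay between 10 and 100, 12 between 1 and 10 and 10 below 1. Together they took 0.394% to 0.473% of the counts of a WT library and 0.349% to 0.405% of those of an XBP1-KO library. Cd209a, a mouse relative of human DC-SIGN, made up 30.8% to 42.3% of these counts. Levels of different genes were compared per kilobase of the longest coding transcript in GENCODE M21. On that scale Cd209a led in WT with 1101 ± 231 CPM per kilobase (SD, n = 3). Clec4b1, known as DCAR, followed with 309.8 ± 126, Clec4a3 with 211 ± 35.9 and Clec7a, the beta-glucan receptor Dectin-1, with 191 ± 39.3 CPM per kilobase. These 3 did not differ from each other beyond their spread. Clec4a1, Clec10a, Clec4a2, Mrc1, Cd302 and Clec12a lay between 82.8 and 128 CPM per kilobase. In XBP1-KO Cd209a again led with 930.0 ± 212 CPM per kilobase. Mrc1 went from rank 8 to rank 11 of the 41 and Clec4a2 from rank 7 to rank 9. The members given as markers, Cd209a, Clec10a, Mrc1 and Clec4n, were thus all present in every library, the lowest value being 37.5 CPM for Clec4n in WT c.

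**Figure D1:**
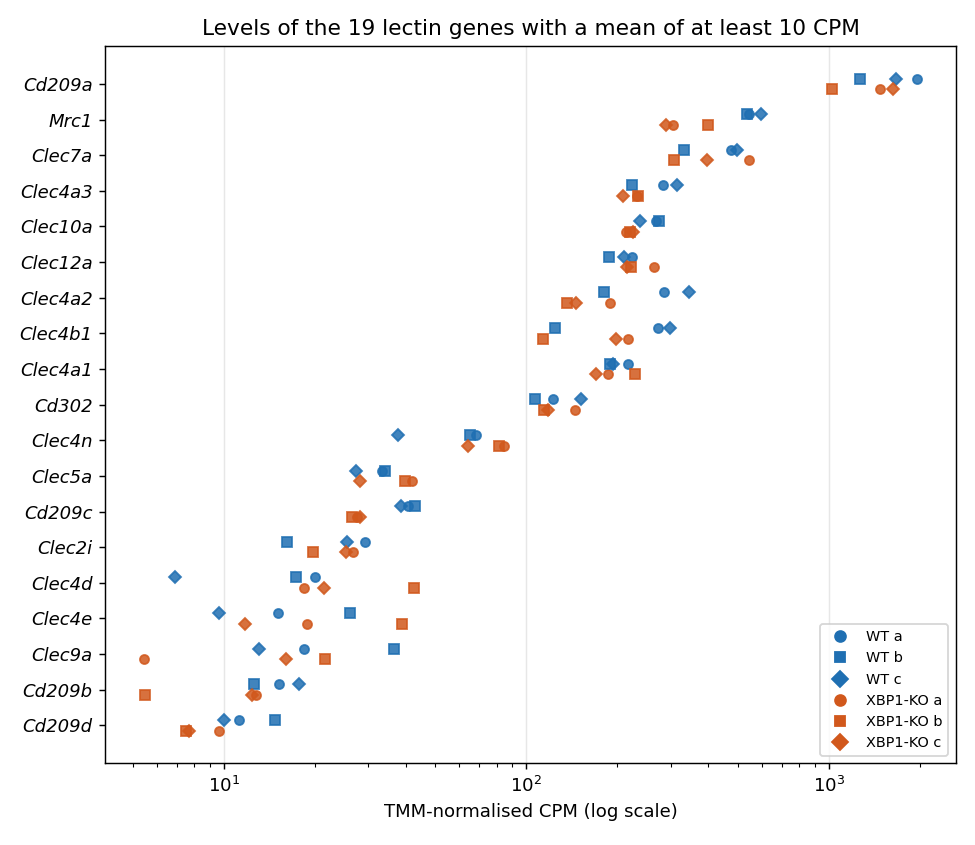
Levels of the 19 members with a mean of at least 10 CPM, on a log axis of TMM-normalised CPM, with 1 point per library (blue WT, orange XBP1-KO; circle, square and diamond for libraries a, b and c). The points of Mrc1 and Cd209c separate by genotype, while those of Cd209a and Clec7a overlap.

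Comparing XBP1-KO with WT addresses which lectin receptor transcripts differed in level between these bulk samples. It does not separate a change within the dendritic cells from a change in the cells present. Mrc1 was lower in XBP1-KO, and no other member passed the test. A filter on low counts kept 34 members, of which 1 was called lower and 0 higher at an adjusted p under 0.05 in edgeR's quasi-likelihood test. Over all 15958 genes tested, 0.445% were called, 0.288% lower and 0.157% higher. At an unadjusted p under 0.05 there were 4 members lower and 1 higher of 34, where 8.26% and 4.59% of all genes were, and 12.9% in either direction. The values of the genotypes did not overlap for 5 members. XBP1-KO lay below WT for Mrc1, Cd209c, Cd209d and Clec10a, where 10.4% of all genes did so, and above it for Clec2l, where 8.80% did. The share of members without overlap was below the 19.2% of all genes. The tested members had a median log2 fold change of -0.06 and 20 of 34 lay lower, while the median of all genes was 0.06 and 43.9% of them lay lower. With library size as the only scaling the median of the members was 0.03 and that of all genes 0.14.

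**Figure D2:**
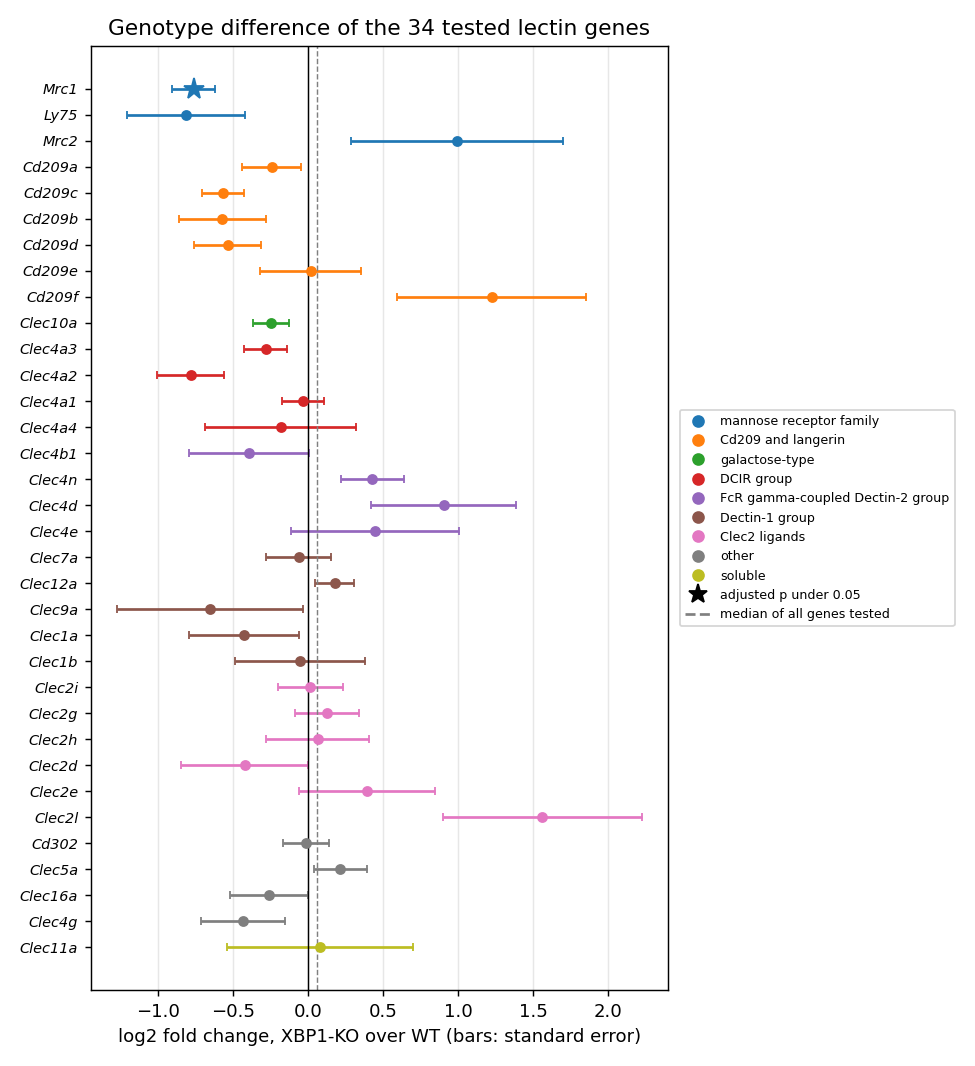
Log2 fold change of XBP1-KO over WT with its standard error for the 34 tested members, coloured by group, with a dashed line at the median of all genes tested. Mrc1, the star, is the only member past the threshold, and the 4 DCIR genes lie left of 0, of which Clec4a1 crossed it under other scalings.

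Mrc1, the mannose receptor CD206, is an endocytic receptor of macrophages and of some dendritic cells. It had 547, 538 and 595 CPM in WT against 305, 398 and 289 CPM in XBP1-KO. The 3 WT values lay within a narrow range, and the XBP1-KO values were all lower, with XBP1-KO b the nearest. Its mean fell from 560.2 ± 30.8 CPM to 330.3 ± 58.9 CPM (SD, n = 3), a log2 fold change of -0.76 (SE 0.14, 95% interval -1.07 to -0.45) and an edgeR adjusted p of 0.0455. The size of the fall held when any library was left out, with log2 fold changes between -0.93 and -0.70, but the call did not. The adjusted p was 0.0108 when XBP1-KO b was left out. It was 0.0726, 0.0694 and 0.243 without the a, b or c library of WT, and 0.179 and 0.166 without the a or c library of XBP1-KO. Upper quartile scaling gave 0.0681 and library size alone 0.094. Of the 12 macrophage genes, none was called, 8 lay higher in XBP1-KO and 4 lower. Their summed level overlapped between the genotypes, and C1qb made up most of it. Among the 4 lower were Mertk, Csf1r and Cd163, with log2 fold changes of -0.29, -0.27 and -0.49. The sum of the 5 cDC2 genes was lower in every XBP1-KO library, at 2567, 2388 and 2868 in WT and 2120.0, 1624 and 1805 CPM in XBP1-KO. Mgl2 made up most of this sum, and its own values overlapped between the genotypes (edgeR adjusted p 0.237). Of the 5 genes, 3 lay lower, while Sirpa and Cd24a had log2 fold changes of 0.06 and 0.04. Itgam, the integrin CD11b, was the 1 called lower, with 477, 585 and 426 CPM in WT against 240.1, 317 and 238 CPM in XBP1-KO (log2 fold change -0.90, adjusted p 0.0306). Ccr2 of the monocyte list was also lower without overlap, with 2694, 2282 and 3108 CPM in WT against 1698, 1862 and 1607 CPM in XBP1-KO (adjusted p 0.0785). The part of these cells in the fall of Mrc1 was not tested. Ly75, the receptor DEC-205 of cross-presenting dendritic cells, had 5.72, 19.1 and 8.42 CPM in WT against 6.66, 7.08 and 5.19 CPM in XBP1-KO. Library WT b stood far above the other 5, and without it the log2 fold change went from -0.81 to -0.19. Mrc2, the collagen receptor Endo180, was low, with 0.458 ± 0.311 CPM in WT against 0.911 ± 0.452 CPM in XBP1-KO (SD, n = 3).

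The Cd209 genes lie side by side on chromosome 8 and are similar in sequence, so the authors' counting could have split reads between them, and single values are uncertain to that extent. Cd209a had 1955, 1272 and 1669 CPM in WT against 1481, 1025 and 1628 CPM in XBP1-KO. The genotypes overlapped, and library b was the lowest in each. Its log2 fold change was -0.24 with a 95% interval of -0.67 to 0.18. Cd209c had 40.8, 42.8 and 38.7 CPM in WT against 27.5, 26.6 and 28.3 CPM in XBP1-KO. Its 3 values within each genotype lay close together and did not overlap between the genotypes, yet the edgeR adjusted p was 0.0914 (log2 fold change -0.57, SE 0.14). It passed with DESeq2 (0.0144) and with a term that sets both b libraries apart (0.0405). Only these 2 of 15 alternative settings called Cd209c, and over all 15 its adjusted p lay between 0.0144 and 0.321. The 2 settings called 484 and 426 genes in all, against 71 in the main test. Cd209d, known as SIGNR3, had 11.2, 14.8 and 9.99 CPM in WT against 9.63, 7.49 and 7.68 CPM in XBP1-KO. These values also did not overlap, with an adjusted p of 0.324. Cd209b, the marginal zone receptor SIGNR1, had 15.2, 12.6 and 17.7 CPM in WT against 12.8, 5.50 and 12.4 CPM in XBP1-KO, with the lowest value in XBP1-KO b and an overlap of the genotypes. Cd209e and Cd209f were low and did not pass. Cd209e had 3.81 ± 1.73 CPM in WT against 3.84 ± 0.390 CPM in XBP1-KO (SD, n = 3). Cd209f had 0.614 ± 0.517 CPM in WT against 1.44 ± 0.246 CPM in XBP1-KO (SD, n = 3, adjusted p 0.448).

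Cd207 encodes langerin, a mannose-binding receptor of Langerhans cells and of some other dendritic cells. It had 14, 19 and 6 counts in WT libraries a, b and c and 0 counts in each XBP1-KO library. Against a floor of 3 counts over the 3 XBP1-KO libraries, which is 0.0334 CPM, its pooled WT level of 0.451 CPM was 13.5-fold higher. Few counts lie behind this ratio. The floor covers counting error in XBP1-KO only, and the counting error of the WT level was not included. The filter on low counts left Cd207 out of the main test. With no such filter it was called, with an edgeR adjusted p of 0.0363 over 23225 genes, of which 252 were called (1.09%). DESeq2, run over the same 23225 genes, called 3 members, and Cd207 was not among them.

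**Figure D3:**
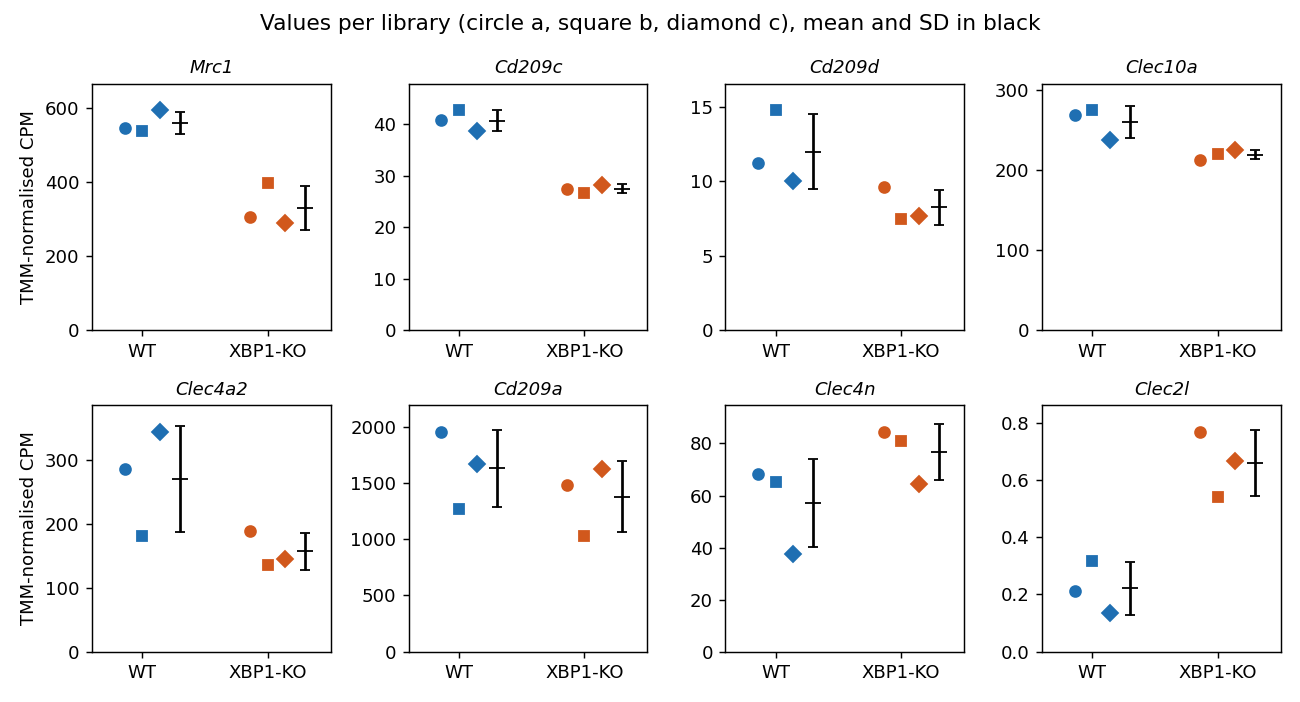
TMM-normalised CPM of 8 members in each library, with the mean and SD of each genotype in black. Mrc1, Cd209c, Cd209d and Clec10a lie lower in every XBP1-KO library, Clec2l lies higher in every one at less than 1 CPM, and the other 3 overlap.

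Clec10a, the galactose-type lectin MGL1, had 269, 275 and 238 CPM in WT against 213, 220.3 and 225 CPM in XBP1-KO. All XBP1-KO values lay below all WT values by a small margin (log2 fold change -0.25, 95% interval -0.51 to 0.01, adjusted p 0.414). Clec4f, a receptor of Kupffer cells, lay at or below 0.319 CPM in every library and was not tested.

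The DCIR and Dectin-2 genes form a run of 9 neighbouring members on chromosome 6, from Clec4a1 to Clec4e, with no other coding gene between them in RefSeq. Several are close copies, so their counts carry the same uncertainty as those of the Cd209 genes. All 4 DCIR genes lay lower in XBP1-KO and none passed, and Clec4a1 lay on the other side of 0 when scaled by the upper quartile (0.02) or by library size alone (0.05). Clec4a2, the inhibitory receptor DCIR, had 286, 181 and 345 CPM in WT against 189.6, 137 and 146 CPM in XBP1-KO. The genotypes overlapped only through WT b, which lay below XBP1-KO a, and the adjusted p was 0.165 with a log2 fold change of -0.78 (SE 0.22). Without WT b the adjusted p was 0.048 with a log2 fold change of -1.03. In the 4 libraries named a or c it was 0.0496, with a term that sets both b libraries apart 0.0265 and with DESeq2 0.0163. These 4 of 15 alternative settings called Clec4a2, and over all 15 its adjusted p lay between 0.0163 and 0.477. Clec4a3 had 282, 224 and 316 CPM in WT against 232, 234 and 209 CPM in XBP1-KO, with WT a and c above all others (adjusted p 0.434). Clec4a1 had 217, 189.8 and 193 CPM in WT against 187, 229 and 170.0 CPM in XBP1-KO, with no separation (log2 fold change -0.04, 95% interval -0.33 to 0.26). Clec4a4, known as DCIR2, was low, with 1.95 ± 1.13 CPM in WT against 1.72 ± 0.749 CPM in XBP1-KO (SD, n = 3).

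Of the activating receptors of the same run, Clec4n, Clec4d and Clec4e had log2 fold changes above 0 and Clec4b1 one below 0, and none passed. Clec4n, the fungal mannan receptor Dectin-2, had 68.3, 65.2 and 37.5 CPM in WT against 84.5, 81.1 and 64.4 CPM in XBP1-KO. WT c was the lowest, and the XBP1-KO values began just below WT b (log2 fold change 0.43, SE 0.21, adjusted p 0.436). Clec4d, the receptor MCL, had 20.1, 17.3 and 6.88 CPM in WT against 18.4, 42.7 and 21.5 CPM in XBP1-KO. Clec4e, the mycobacterial glycolipid receptor Mincle, had 15.2, 26.2 and 9.62 CPM in WT against 18.8, 38.8 and 11.7 CPM in XBP1-KO. For both genes XBP1-KO b was the highest and WT c the lowest library. Their edgeR adjusted p-values were 0.498 and 0.780, and without XBP1-KO b the log2 fold change of Clec4e went from 0.44 to -0.16. Both genes are also known from neutrophils, and the 5 neutrophil markers had sums of 211, 138 and 107 CPM in the WT libraries and 333, 352 and 386 CPM in those of XBP1-KO. That sum was highest in XBP1-KO c, where Clec4d had 21.5 CPM and Clec4e 11.7 CPM. The part of neutrophils in the levels of Clec4d and Clec4e was not tested. Clec4b1 had 273, 124 and 298 CPM in WT against 217, 114 and 198 CPM in XBP1-KO, lowest in library b of each genotype (log2 fold change -0.40, adjusted p 0.727). Clec4b2 was at 1, 3 and 2 counts in WT and 14, 0 and 10 counts in XBP1-KO and was not tested.

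In the Dectin-1 group, 6 neighbouring genes of chromosome 6, nothing passed. Clec7a had 476, 333 and 498 CPM in WT against 545, 309 and 396 CPM in XBP1-KO, with the genotypes overlapping (log2 fold change -0.06, 95% interval -0.54 to 0.41). Clec12a, an inhibitory receptor that senses uric acid crystals, had 223, 187 and 211 CPM in WT against 264, 223 and 216 CPM in XBP1-KO and a log2 fold change of 0.18 (adjusted p 0.605). Clec9a, the receptor DNGR-1 with which cross-presenting dendritic cells of the cDC1 type detect dead cells, had 18.4, 36.6 and 13.1 CPM in WT against 5.45, 21.6 and 16.1 CPM in XBP1-KO. It was highest in library b of each genotype and lowest in XBP1-KO a, and its adjusted p was 0.707. The summed level of 6 other cDC1 genes was 290.1, 702 and 301 CPM in the WT libraries and 173, 420.0 and 290.5 CPM in those of XBP1-KO. It ranked the libraries b, c, a in XBP1-KO as Clec9a did. In WT the sum ranked them b, c, a and Clec9a b, a, c. Of the 6 genes, 4 lay lower and 2 higher, Cd8a without overlap. Batf3 was lowest in XBP1-KO b, at 20.9 CPM against 45.6 and 38.0 CPM in a and c. The part of cDC1 cells in the level of Clec9a was not tested. Clec1a had 4.13 ± 2.11 CPM in WT against 3.06 ± 0.649 CPM in XBP1-KO (SD, n = 3). Clec1b, the platelet receptor CLEC-2, had 1.25 ± 0.232 CPM in WT against 1.20 ± 0.171 CPM in XBP1-KO (SD, n = 3). Clec12b was at or below 0.546 CPM in every library.

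Several Clec2 proteins are ligands of NKR-P1 receptors on NK cells, and nothing in the group passed. Clec2i, the ligand Clr-g, had 29.3, 16.2 and 25.6 CPM in WT against 26.8, 19.7 and 25.4 CPM in XBP1-KO, with no separation of the genotypes (log2 fold change 0.01, 95% interval -0.46 to 0.49). Clec2g was the next, with 8.95 ± 0.794 CPM in WT against 9.75 ± 1.48 CPM in XBP1-KO (SD, n = 3). Clec2h, Clec2d and Clec2e had means between 1.07 and 2.78 CPM. The edgeR adjusted p-values of these 4 lay between 0.705 and 0.954. Clec2l, known from the brain, had 6, 9 and 4 counts in WT and 21, 16 and 22 counts in XBP1-KO. The counts did not overlap, but they were few and the adjusted p was 0.342. The 3 NKR-P1 genes found in the table lay higher and did not pass either, with a median log2 fold change of 0.14.

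Of the remaining members, Clec5a, the receptor MDL-1 that signals through the adaptor Tyrobp, had 33.3, 34.1 and 27.3 CPM in WT against 41.8, 39.8 and 28.3 CPM in XBP1-KO, with the XBP1-KO values beginning inside the WT range (adjusted p 0.640). Cd302, a small type I receptor whose gene lies beside Ly75, had 123, 107 and 151 CPM in WT against 145, 114 and 118 CPM in XBP1-KO and a log2 fold change of -0.02 with a 95% interval of -0.35 to 0.31. Clec4g, the liver endothelial lectin LSECtin, had 6.15 ± 1.67 CPM in WT against 4.55 ± 0.731 CPM in XBP1-KO (SD, n = 3). Clec16a, an endosomal protein that shares the name and is not a receptor of this kind, had 6.84 ± 0.702 CPM in WT against 5.72 ± 1.46 CPM in XBP1-KO (SD, n = 3). The secreted Clec11a was tested at 0.485 ± 0.125 CPM in WT against 0.514 ± 0.163 CPM in XBP1-KO (SD, n = 3). Clec3a, Clec3b and Clec14a had at most 9 counts in any library and were not tested.

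Some members were ordered by library in the same way within both genotypes. Library b was the lowest of the 3 in both for 7 of the 34 tested members, Cd209a, Clec7a, Clec4a2, Clec4b1, Cd302, Clec2i, Cd209b, or 20.6%, where 17.2% of all tested genes did so. It was the highest in both for 5 members, Clec4e, Clec9a, Ly75, Cd209e, Clec2e, or 14.7%, where 18.9% of all tested genes did so. Both shares were close to those of all genes. The letters name columns and pair no samples. Among the 19 members of at least 10 CPM, the coefficient of variation over 3 libraries had a median of 20.6% in WT and 17.8% in XBP1-KO. It was lowest for Cd209c in WT, at 5.05%, and for Clec10a in XBP1-KO, at 2.78%, and highest for Clec9a in WT, at 54.3%, and Clec4e in XBP1-KO, at 60.7%. In the 4 libraries named a or c, 2 members were called, Mrc1 (adjusted p 0.0195) and Clec4a2 (0.0496), of 34 tested, and 70 of all genes (0.440%).

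**Figure D4:**
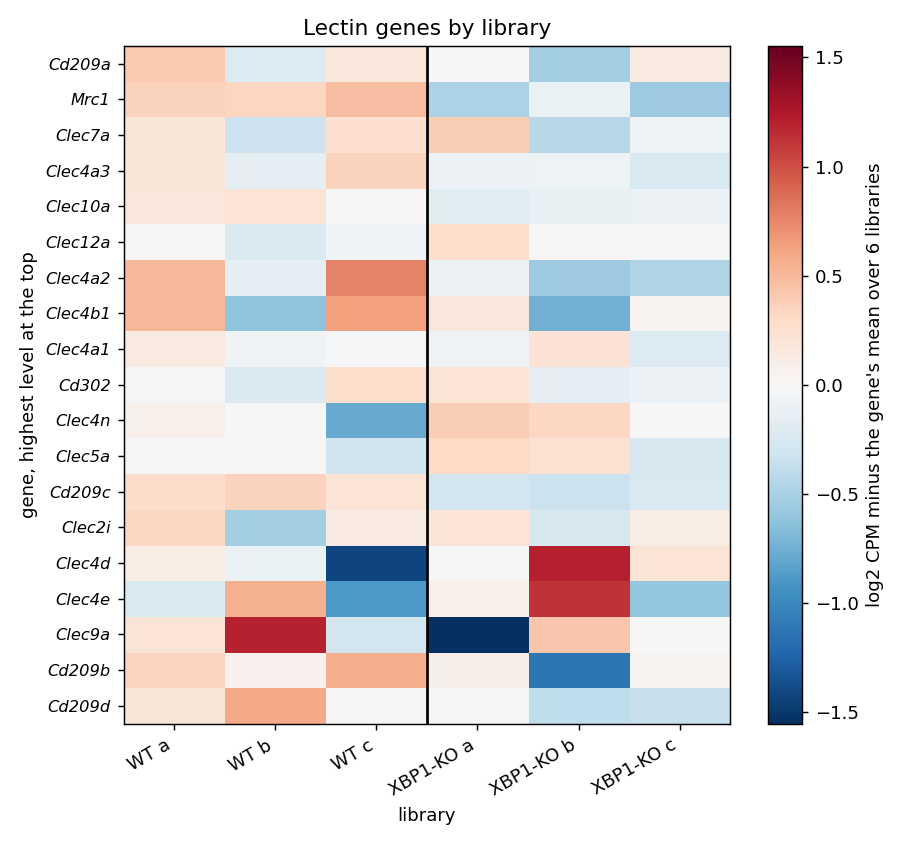
Log2 CPM of the 19 members with a mean of at least 10 CPM in each library, as the difference from the gene's mean over the 6 libraries (red higher, blue lower; a line separates the genotypes). Mrc1 and Cd209c change colour at the line, while Clec4b1 is blue in library b of each genotype and Clec9a is red there.

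The signalling genes behind these receptors were read from a list of 30, all tested, of which 17 lay lower and 13 higher with a median log2 fold change of -0.11, and none was called. At an unadjusted p under 0.05 there were 6 lower and 1 higher of the 30, where 8.26% and 4.59% of all genes were. Map3k14, the kinase NIK of alternative NF-kB signalling, had 88.4, 121 and 118 CPM in WT against 64.5, 75.1 and 61.2 CPM in XBP1-KO (log2 fold change -0.71, edgeR adjusted p 0.0633), with no overlap. Pik3cd, a catalytic subunit of PI3 kinase, had 110.4 ± 12.2 CPM in WT against 76.6 ± 5.18 CPM in XBP1-KO (SD, n = 3, adjusted p 0.0987). Fcer1g and Tyrobp are the adaptors that carry the activating motif. Fcer1g had 1253 ± 181 CPM in WT against 1392 ± 111 CPM in XBP1-KO (SD, n = 3). Tyrobp had 1331 ± 289 CPM in WT against 1451 ± 113 CPM in XBP1-KO (SD, n = 3), and both overlapped between the genotypes. Syk and Card9 were named after their values were seen. Syk had 185 ± 9.35 CPM in WT against 139 ± 21.8 CPM in XBP1-KO (SD, n = 3, adjusted p 0.208). Card9 had 16.1 ± 1.31 CPM in WT against 12.2 ± 1.67 CPM in XBP1-KO (SD, n = 3, adjusted p 0.406). Neither overlapped between the genotypes, XBP1-KO being lower, as it was without overlap for 10.4% of all genes. Of 9 inhibitory genes, 7 lay lower and none was called, with a median of -0.14. Inpp5d, the lipid phosphatase SHIP-1, had 206, 274 and 276 CPM in WT against 125, 183 and 169 CPM in XBP1-KO (adjusted p 0.0992). Cbl, a ubiquitin ligase, had 44.0 ± 5.22 CPM in WT against 27.9 ± 4.27 CPM in XBP1-KO (SD, n = 3, adjusted p 0.0959). Ptpn6, the phosphatase SHP-1, had 577 ± 14.6 CPM in WT against 525 ± 60.8 CPM in XBP1-KO (SD, n = 3). Dok2, an adaptor that dampens kinase signals, had 543 ± 159 CPM in WT against 357 ± 89.3 CPM in XBP1-KO (SD, n = 3).

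Of 12 transcription factors known to control lectin receptor genes in myeloid cells, 7 lay lower, 5 higher and none was called. Stat6, which carries the IL-4 signal that raises Mrc1 in other settings, had 299.7, 347 and 299 CPM in WT against 181, 228 and 199 CPM in XBP1-KO. Its values did not overlap, and the adjusted p was 0.0565 (log2 fold change -0.64, SE 0.13). Cebpb had 19.9 ± 2.54 CPM in WT against 29.6 ± 4.15 CPM in XBP1-KO (SD, n = 3, adjusted p 0.165). Maf had 156 ± 21.8 CPM in WT against 212 ± 45.6 CPM in XBP1-KO (SD, n = 3, adjusted p 0.280).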

How the data were processed

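RNA-seq of 3 WT and 3 XBP1-KO libraries was analysed from the deposited table of counts per gene symbol, which the authors left unnormalised. The deposited CPM table holds these counts relative to the library total, for genes above 1 CPM in at least 2 libraries, and was used only for how many members it lists (31). RSEM, edgeR and build mm9 are named in the submitters' processing notes. Roles, aligner, annotation and strand setting: not given in the sources used here. Columns name the genotype and no replicate, so libraries are called a, b and c in column order. No column was left out.

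The whole table was tested with edgeR 4.0.16 in R 4.3.3 (filterByExpr defaults, TMM, glmQLFit with robust estimation, genotype as the only term, quasi-likelihood F test, two-sided), with Benjamini-Hochberg adjustment over 15958 genes and a threshold of 0.05. Standard errors are the fold change over the square root of F. Depth, from 26946349 to 32709100 counts, limits only genes of few counts; the common biological coefficient of variation was 0.25. In simulated data of 15524 tested genes, 3 against 3, 60% of 100 genes changed 2-fold and 86% of 100 changed 4-fold were recovered, with 10 false calls. Alternatives were DESeq2 1.42.0, limma-voom (limma 3.58.1), other scalings and filters, a term for the b libraries, which stood apart on the second principal component, and leaving out libraries.

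Members and gene lists were chosen with earlier results of these data known. Members of at least 10 CPM and called ones were given per library; of each list, called genes or else the 2 with the smallest p, and the 2 with the highest level, could be named. Of 191 listed genes, 8 had no matching symbol and were not used here.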

Additional observations from a re-analysis of the deposited data

How the results depend on the processing

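Over 15 alternatives, 458 of 507 pairs of a tested member and a setting kept direction and side of the threshold, 36 changed sign, 7 lost and 6 gained the call. The cause was not tested in any case. Members called (1 in the main test) numbered 3 with DESeq2 and 3 with the term for the b libraries (Mrc1, Clec4a2 and Cd209c in each), 2 with no filter (Mrc1, Cd207), 2 in the 4 libraries named a or c (Mrc1, Clec4a2), and 0 under both upper quartile scaling and library size alone. Called genes of the 7 pathway lists (1) numbered 9 with DESeq2, 9 with the term for the b libraries, 6 with no filter and 0 with library size alone, and those of all genes (71) 484, 426, 252 and 25, and 47 with limma-voom. The members' median of -0.06 became 0.025 with library size alone and -0.169 among the 31 members above 1 CPM in 2 libraries. In the 4 libraries 16 of 34 members had no overlap (47.1%), as did 49.0% of all genes there, where 5 had none in all 6 (14.7% against 19.2%). Leaving out 1 library gave 0 to 1 members called (Clec4a2 without WT b, Mrc1 without XBP1-KO b), 0 to 3 pathway genes, 5 to 154 genes in all, 6 to 13 members without overlap (17.1% to 38.2%, where 24.8% to 34.6% of all genes had none in the same fits) and medians of -0.229 to -0.056. Log2 fold changes changed sign for Clec2i with DESeq2 (-0.0094), for Cd302 and Clec4a1 with upper quartile scaling (0.038, 0.019), for Cd302, Clec4a1, Clec7a and Clec1b with library size alone (0.069, 0.047, 0.021, 0.029), and in the 4 libraries for Clec1a (0.036), Clec2i (-0.092), Fcer1g (-0.00038) and Tyrobp (-0.029). With 1 library left out the following crossed 0: Cd209e -0.21 to 0.42, Cd302 -0.15 to 0.12, Clec11a -0.13 to 0.29, Clec1a -0.67 to 0.043, Clec1b -0.18 to 0.10, Clec2g -0.0046 to 0.20, Clec2h -0.15 to 0.26, Clec2i -0.22 to 0.19, Clec4a1 -0.18 to 0.032, Clec4a4 -0.59 to 0.28, Clec4e -0.16 to 0.87, Clec7a -0.31 to 0.095, Tyrobp -0.072 to 0.23. No paired analysis was possible because the columns carry no replicate number, so the replicate block was not run. Depth limits the members of few counts, such as Cd207 and Clec2l.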

Other observations

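Lectin-like genes with other names were read from a list of 26, of which 18 were tested, 13 lay higher in XBP1-KO and 5 lower, with a median log2 fold change of 0.26, and none was called. Mgl2, the close relative of Clec10a, had 1638, 1389 and 1972 CPM in WT against 1441, 904 and 1117 CPM in XBP1-KO. WT b lay inside the XBP1-KO range, and the edgeR adjusted p was 0.237 (log2 fold change -0.53, SE 0.18). Cd69, an early activation receptor of lymphocytes, had 9.47, 11.6 and 7.78 CPM in WT against 17.2, 16.9 and 18.8 CPM in XBP1-KO, without overlap and with an adjusted p of 0.0785. The summed T and NK cell genes were also higher in every XBP1-KO library, and their part in this was not tested. Selp, the platelet and endothelial selectin, had 13.9 ± 4.98 CPM in WT against 25.5 ± 7.32 CPM in XBP1-KO (SD, n = 3). The summed platelet genes were higher in every XBP1-KO library, at 161, 155 and 91.6 in WT and 171, 439 and 218 CPM in XBP1-KO. Of these, Pf4 had 131 ± 37.1 CPM in WT against 266 ± 141 CPM in XBP1-KO (SD, n = 3, adjusted p 0.413) and Ppbp 3.29 ± 1.89 CPM in WT against 7.69 ± 1.77 CPM in XBP1-KO (SD, n = 3, adjusted p 0.202), both without overlap, and their part in the level of Selp was not tested. Lgals3, a galectin, had 387 ± 50.8 CPM in WT against 496 ± 79.3 CPM in XBP1-KO (SD, n = 3).

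Of 15 tested genes of clathrin-mediated uptake, 8 lay higher, 7 lower and none was called. Ap2m1, a subunit of the AP-2 adaptor, had 1386 ± 51.0 CPM in WT against 1284 ± 219.8 CPM in XBP1-KO (SD, n = 3). The smallest p-values were those of Ap2b1 and Eea1, with adjusted values of 0.337 and 0.354 in edgeR. Of 9 tested cytokine genes known to follow lectin receptor signalling, 6 lay higher and 3 lower. Over all genes tested 0.445% were called, and of these 9 genes 1 was called. This was Il12b, which fell from 26.5 ± 7.85 CPM to 8.26 ± 2.78 CPM (SD, n = 3, edgeR adjusted p 0.0440). Under the 15 alternatives its adjusted p lay between 1.05e-06 and 0.18, and 9 of them called it.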
